A study of Homo sapiens with 8 samples.

Results

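The replication-dependent histone genes and the linker histone genes were followed through UHRF1 depletion in HCT116 human colorectal cancer cells. Members were taken by name, as every gene row whose symbol carries the current H1, H2AC, H2BC, H3C or H4C numbering or the older HIST form. The rule found 70 of the 60649 gene identifiers, namely 10 H1, 16 H2A, 17 H2B, 13 H3 and 14 H4 genes. Of these 55 lie in the large cluster at 6p22 on chromosome 6, 11 in the cluster at 1q21 on chromosome 1, and the remaining 4, all linker genes, stand alone elsewhere.

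PolyA RNA was sequenced in 8 libraries, 2 in each of 4 groups. HCT116 shScr is the parental line with a control hairpin and HCT116 shUHRF1 the same line with a hairpin against UHRF1, the factor that brings the DNA methyltransferase DNMT1 to newly replicated DNA. UF1hypo shScr and UF1hypo shUHRF1 carry the same hairpins in UF1hypo cells, a single heterozygous UHRF1 knockout clone of HCT116 in which exon 4 of 1 allele was excised. All cells were thus transduced with a lentiviral hairpin and selected with puromycin as stable pools, so that no untransduced cells are among the groups, and differences between the lines cannot be told apart from those of 1 clone. The sources used here do not give the day of harvest of these libraries, and nothing states that the 2 libraries of a group came from separate cultures, so that p-values measure the spread between these libraries, which may be technical.

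Histones H2A, H2B, H3 and H4 form the nucleosome core and H1 binds the linker DNA between nucleosomes. The clustered genes are transcribed mainly in S phase, and their mRNAs end in a conserved stem-loop bound by SLBP in place of a poly(A) tail, while the genes outside the clusters yield polyadenylated mRNA in cycling and in resting cells. Some clustered genes also give polyadenylated transcripts that read past the stem-loop, which have been described in differentiating cells. A library of polyA RNA therefore captures the clustered genes in part, and the values below are levels of polyadenylated RNA.

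The stem-loop was searched for by its consensus within 200 bases after each stop codon in GRCh38, and was found in 66 of the 70 genes, 23 to 68 bases past the stop codon. The 4 without it are the 4 genes outside the clusters. Its commonest form, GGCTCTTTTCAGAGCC, stood in 38 genes. The stem-loops of the 7 genes below are shown because these genes, 1 or more from every class, carry much of the signal or the change that follows. Capitals mark the 16 bases of stem and loop, and the 5 bases on either side are in lower case.

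H1-2, chr6:26055739-26055764, minus strand: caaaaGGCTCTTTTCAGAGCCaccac
H2AC6, chr6:26124664-26124689, plus strand: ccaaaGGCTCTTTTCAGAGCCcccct
H2BC12, chr6:27146361-27146386, minus strand: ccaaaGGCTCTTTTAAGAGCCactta
H2BC11, chr6:27132316-27132341, minus strand: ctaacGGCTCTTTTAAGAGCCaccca
H2BC4, chr6:26123467-26123492, minus strand: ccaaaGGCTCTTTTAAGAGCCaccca
H3C10, chr6:27810511-27810536, plus strand: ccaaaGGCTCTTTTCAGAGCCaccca
H4C8, chr6:26285126-26285151, minus strand: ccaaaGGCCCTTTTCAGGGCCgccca

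The stem of H4C8 differs from those of the other 6 in sequence but pairs in the same way. In GENCODE version 44, 14 of the 66 genes have a transcript that ends more than 50 bases past the stem-loop, among them H2AC6, H2BC4, H2BC11, H3C10 and H4C8, whereas none is annotated for H1-2 or H2BC12. The gene rows of the files do not follow these models in every gene, and those of H4C5 and H4C9, for example, run past the stem-loop.

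The promoters of H2BC12 and H2AC6 are shown from the RefSeq table of GRCh38.p14, as the 250 bases before the RefSeq start, which can differ from that of the gene row in the files: the last bases of the H2AC6 promoter lie inside its row. H2BC12 was the most abundant gene with a stem-loop, and the H2AC6 promoter covers the space between H2AC6 and the divergently transcribed H2BC4, both of which rose on knockdown in UF1hypo. Capitals mark the octamer ATTTGCAT, the CCAAT box CCAAT and the TATA box TATAAA, each searched on both strands, and adjacent matches can merge into 1 run.

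H2BC12, chr6:27146859-27147108, minus strand: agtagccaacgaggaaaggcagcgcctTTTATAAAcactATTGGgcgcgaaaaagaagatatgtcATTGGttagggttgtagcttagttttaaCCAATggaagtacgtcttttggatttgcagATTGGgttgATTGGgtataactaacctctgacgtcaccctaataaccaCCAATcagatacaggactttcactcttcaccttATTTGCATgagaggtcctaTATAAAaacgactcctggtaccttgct
H2AC6, chr6:26123922-26124171, plus strand: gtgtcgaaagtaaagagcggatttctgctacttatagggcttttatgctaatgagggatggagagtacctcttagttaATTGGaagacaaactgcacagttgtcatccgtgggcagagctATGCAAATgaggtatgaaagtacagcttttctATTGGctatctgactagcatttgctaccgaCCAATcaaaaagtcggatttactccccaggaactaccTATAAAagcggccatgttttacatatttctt

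Of the 64 members with a promoter in that table, the octamer stood in 14 of 17 H2B promoters (82.4%) and 11 of 15 H2A promoters (73.3%), against 1.63% of all 35116 promoters. It was found in 1 of 11 H3, 0 of 12 H4 and 0 of 9 H1 promoters. The CCAAT box was in every H2A, H2B and H3 promoter, in 8 of 9 H1 and 3 of 12 H4 promoters, and in 32% of all promoters. The TATA box was in 80% of H2A, 72.7% of H3, 70.6% of H2B, 50% of H4 and 44.4% of H1 promoters, against 10.7% of all.

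UHRF1 itself was first followed. Its TPM (transcript abundance per length, scaled by StringTie to the same total in each library) was 87.5 and 98.4 in HCT116 shScr, against 31.7 and 32.7 in HCT116 shUHRF1. In UF1hypo cells it was 47.3 and 50.6 with shScr, against 34.1 and 21.1 with shUHRF1. In each line both shUHRF1 libraries lay below both shScr libraries, but neither change was called: the log2 fold change was −1.50 in HCT116 (limma, adjusted p = 0.0634), and in UF1hypo −0.84 (limma, adjusted p = 0.0405) stayed within the fold-change threshold.

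A gene was called when limma gave an adjusted p (Benjamini-Hochberg over all protein-coding genes tested) below 0.05 and an absolute log2 fold change above 1. Fold changes are differences of mean log2(TPM + 1), which understates the change of low genes, and a gene entered a test only with a TPM over 1 in some library of the contrast. Aligned bases ranged from 5.42 to 7.83 gigabases per library, and a TPM of 1 most often stood for a mean coverage of 2.34 to 3.44 reads per base. That ratio did not hold for every gene and was lower in some. H2BC18, for example, had a mean coverage of 1.099 at a mean TPM of 1.786 in UF1hypo shUHRF1. The tables hold no read counts, so that a TPM of 0 is given as listed at 0 and counting errors are unknown. The difference between the 2 UF1hypo shUHRF1 libraries followed transcript GC content across 13783 genes (Spearman's rho 0.814, genes not being independent replicates), and that between the 2 UF1hypo shScr libraries did so in the opposite direction (−0.508), against −0.0416 and −0.068 in the HCT116 groups. For UF1hypo shUHRF1 the Pearson's r between replicates of 0.956 was below the 0.991 to 0.992 of the other groups. The fit shares a single spread per gene over all groups. Counts of calls with a library left out therefore also depend on whether both UF1hypo shUHRF1 libraries stay in the fit. Of 8 colon epithelium markers 6 exceeded a TPM of 1, all but VIL1 and CDX1, and their summed TPM was 4354 to 4408 in HCT116 shScr and 5484 to 5603 on knockdown, and in UF1hypo 8812 to 9086 with shScr and 9857 to 12710 with shUHRF1. Most of these sums came from KRT8, KRT18 and KRT19, which with CDX2 had higher means on knockdown in both lines. EPCAM fell from 363 and 372 to 302 and 311 in HCT116, and from 357 and 326.5 to 174 and 314 in UF1hypo. CDH1 fell in HCT116 (42.3 and 42.7 to 37.9 and 35.4) and rose in UF1hypo (58.7 and 52.8 to 102 and 111.5). No leukocyte (6) or endothelial (4) marker reached a TPM of 1, and of 6 fibroblast markers COL1A1 and THY1 did, with a summed TPM of 21.2 to 28.9 in the other groups and 43.2 to 72.0 in UF1hypo shUHRF1, where COL1A2 was listed at 0. By limma the keratin genes KRT8, KRT18 and KRT19 were called higher in UF1hypo shScr than in HCT116 shScr, THY1 was called higher on knockdown in UF1hypo, and CDH1 and THY1 were called for the difference between the knockdowns. The part of these shifts in the histone values was not tested. In bulk RNA, fewer cells that express a gene cannot be told apart from less of its RNA per cell.

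Most members were scarce. Of the 70 genes 13 were listed at 0 in all 8 libraries: H1-5, H2AC15, H2BC1, H2BC3, H2BC9, H2BC10, H3C3, H3C7, H3C8, H3C11, H4C7, H4C13 and H4C14. A further 18 rose above 0 but never above a TPM of 1, 39 exceeded 1 in at least 1 library, 12 exceeded 10, and 10 exceeded 1 in every library. Genes listed at 0 in both libraries of a group numbered 27 in HCT116 shScr and 30 on knockdown, and in UF1hypo 24 with shScr and 16 with shUHRF1.

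**Figure D1:**
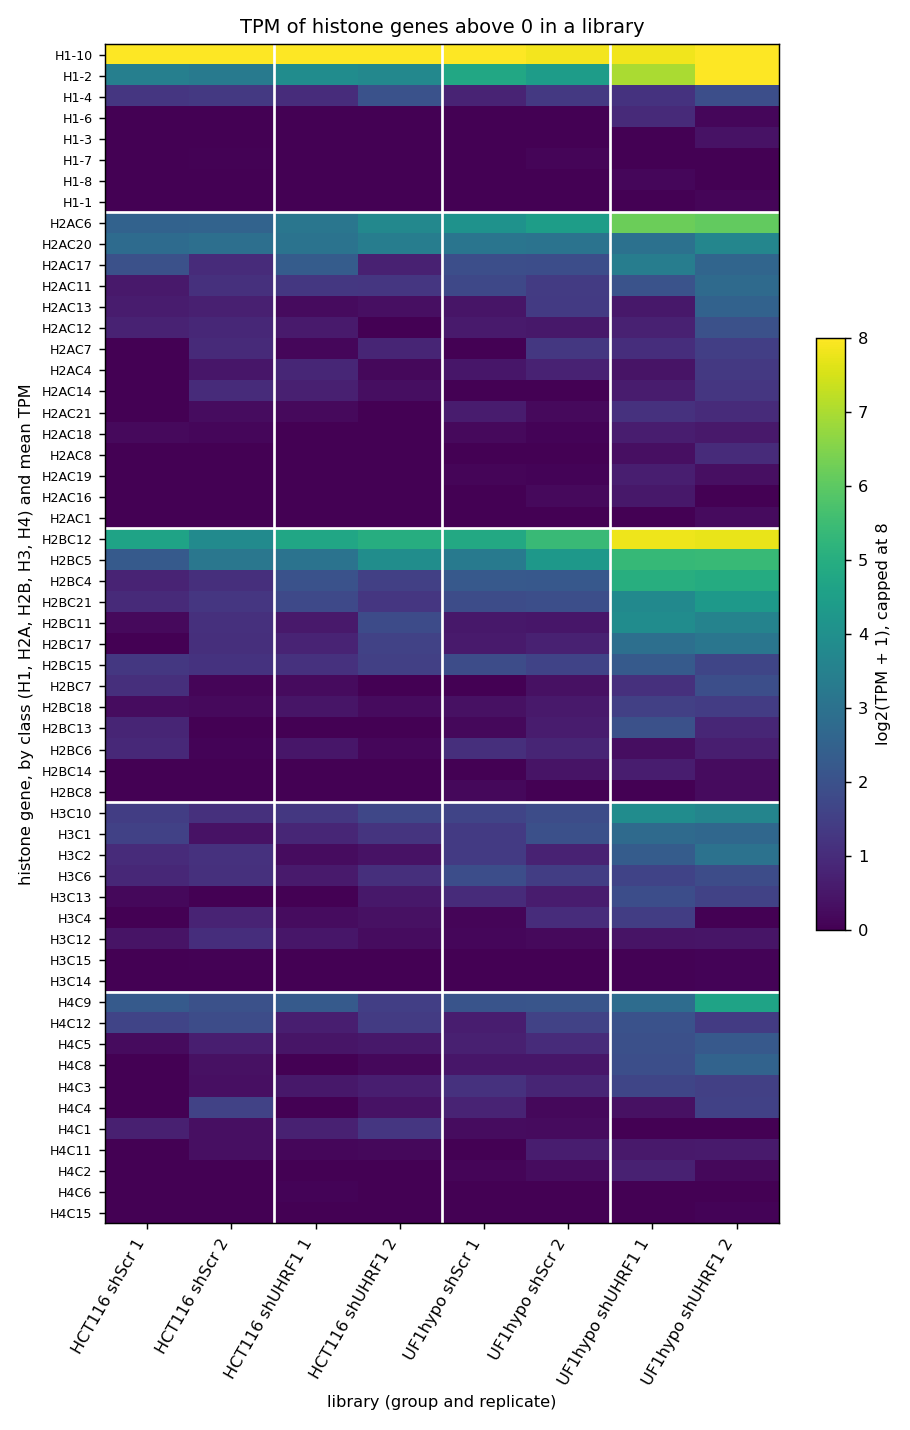
Heat map of log2(TPM + 1), capped at 8, for 56 of the 57 histone genes above 0 in at least 1 of the 8 libraries, with genes in rows by class and mean TPM and libraries in columns by group and replicate. H1-10 is bright in every column, most other rows are dark, and rows such as H1-2, H2AC6, H2BC12, H2BC4 and H3C10 brighten in both UF1hypo shUHRF1 columns.

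Some values cannot be assigned to 1 gene with certainty. The coding sequences of 11 members are at least 95% identical to that of another member, and 8 are identical in pairs (H2AC18 with H2AC19, H3C14 with H3C15, H4C11 with H4C12, and H4C14 with H4C15), so that reads can be split between copies. A row of 15 members overlaps that of another gene, among them H2BC5, H2BC6, H2BC18, H2AC17 and H1-10 of those described below. Whether strand was used in counting is not given in the sources used here, so that overlapping genes on opposite strands cannot be separated.

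Knockdown of UHRF1 in UF1hypo cells raised 13 histone genes, and none was called lower. They were 7 H2B genes (H2BC11, H2BC4, H2BC12, H2BC17, H2BC21, H2BC5 and H2BC18), H1-2, H2AC6, the H3 genes H3C10 and H3C2, and the H4 genes H4C8 and H4C5. Their log2 fold changes ran from 1.02 for H2BC18 to 3.24 for H2BC11. The replication-independent linker gene H1-10 changed by −0.01. Of the 70 members 37 were tested, and the background was 8.53% called in either direction and 7.39% called higher (1007 of 13622 genes), against 1.14% called lower (155 genes). That split depended on single libraries: without replicate 2 of UF1hypo shUHRF1 1391 genes were called higher and 861 lower, and without replicate 1 or 2 of UF1hypo shScr 587 and 698 higher and 63 and 69 lower. Under quantile normalization that background was 683 higher and 291 lower, the median change of all genes moving from 0.04 to −0.06, and 10 of the 13 members were still called.

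A filter passed through the libraries in which a gene is high favors rising genes. Of the 37 tested members 24 passed through the shScr libraries and the other 13 only through shUHRF1, where a rise was needed to enter, so that the share of called members among the 37 is no measure of the class. With the filter set on the shScr libraries, an alternative chosen after seeing the data, 7 of 24 members were called (H1-2, H2AC6, H2BC4, H2BC12, H2BC21, H3C10 and H3C2), where the background was 5.38%, or 677 of 12595 genes.

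**Figure D2:**
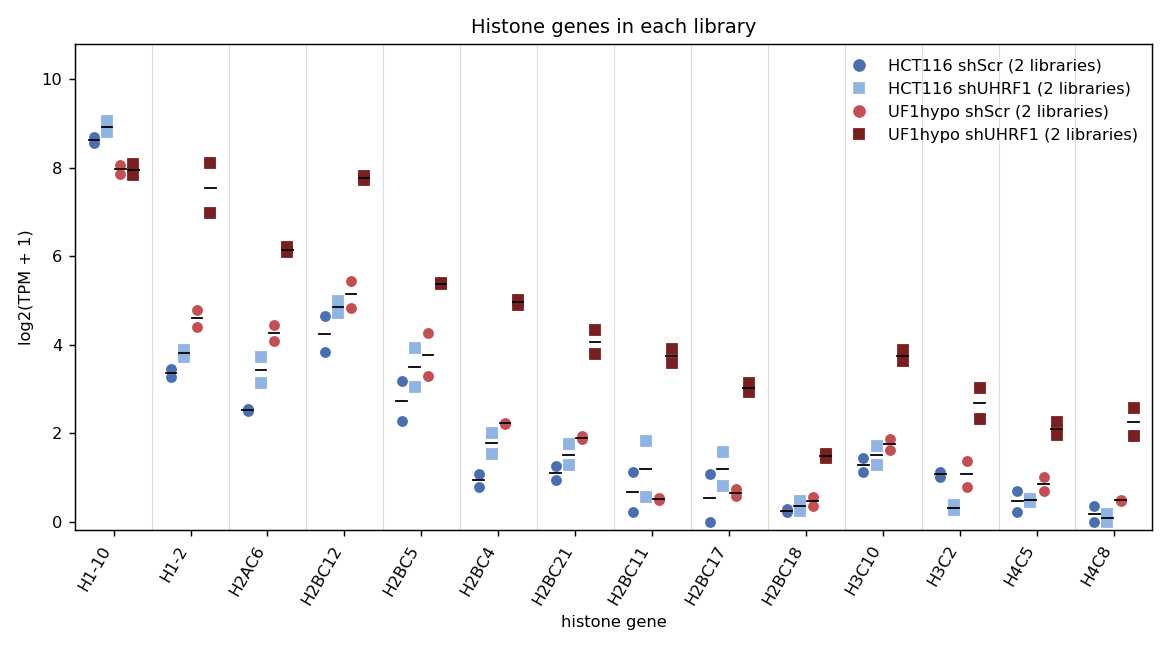
Plot of log2(TPM + 1) for H1-10 and the 13 histone genes called on UHRF1 knockdown in UF1hypo, with 1 point per library, colors and marker shapes for the 4 groups and black bars for the mean of 2 libraries. In all 13 called genes both UF1hypo shUHRF1 points lie above the points of the other 3 groups, whereas in H1-10 they overlap those of UF1hypo shScr.

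H1-2, a linker histone gene of the 6p22 cluster (chromosome 6, 26055740 to 26056470, minus strand), had a TPM of 26.6 and 20.2 in UF1hypo shScr, against 125 and 274 in UF1hypo shUHRF1. Both knockdown libraries were far above the controls, although they lay apart from each other. Its log2 fold change was 2.94 (limma, SE 0.333, adjusted p = 0.000882), and it stayed between 2.38 and 3.50 when each library was left out. In HCT116 its TPM was 9.91 and 8.64 with shScr, against 13.8 and 12.2 with shUHRF1, which did not overlap but gave a log2 fold change of 0.45 (limma, adjusted p = 0.978).

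The other linker genes with a stem-loop were low. H1-4 had a TPM of 0.746 and 1.52 in UF1hypo shScr, against 1.25 and 2.82 in UF1hypo shUHRF1, which overlapped, with a log2 fold change of 0.48 (limma, SE 0.379, adjusted p = 0.454). H1-1, H1-3 and the testis gene H1-6 were above 0 in UF1hypo shUHRF1 libraries alone, at no more than a TPM of 0.939, and H1-5 was listed at 0 throughout. The oocyte gene H1-8 and the testis gene H1-7, both outside the clusters, stayed at or below 0.101.

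H1-10, an abundant variant on chromosome 3, had a TPM of 374 and 414 in HCT116 shScr, 531 and 446 on knockdown, and in UF1hypo 267 and 232 in the control libraries and 227 and 270 on knockdown. Its UF1hypo groups overlapped. H1-10 passed the test in no comparison, and the 95% interval of its log2 fold change on knockdown in UF1hypo was −0.37 to 0.36.

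H2AC6 led the H2A genes, with a TPM of 15.9 and 20.8 in UF1hypo shScr, against 73.2 and 67.0 in UF1hypo shUHRF1. The groups were well separated, and its log2 fold change was 1.89 (limma, SE 0.239, adjusted p = 0.00155). Of the 10 H2A genes tested it alone was called. H2AC20, the next most abundant H2A gene, had a TPM of 7.66 and 7.20 with shScr, against 6.89 and 11.7 with shUHRF1, and its groups overlapped, with a log2 fold change of 0.25 (limma, adjusted p = 0.579). H2AC17 had a TPM of 2.81 and 2.74 against 9.41 and 5.14, a log2 fold change of 1.08 with an SE of 0.527 (limma, adjusted p = 0.227), and its row overlaps that of H3C12 on the same strand.

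H2B genes made up 7 of the 13 called members. Of the 11 H2B genes tested 5 entered only through the shUHRF1 libraries, and 3 of the 7 calls (H2BC11, H2BC17 and H2BC18) came from these. H2BC12 (chromosome 6, 27146361 to 27146855, minus strand) had a TPM of 27.6 and 42.3 in UF1hypo shScr, against 223 and 211 in UF1hypo shUHRF1. The knockdown libraries agreed closely and lay well above the controls, with a log2 fold change of 2.63 (limma, SE 0.294, adjusted p = 0.000843). H2BC4 had a TPM of 3.68 and 3.63 with shScr, against 31.1 and 29.0 with shUHRF1, tight within either group, a log2 fold change of 2.74 (limma, SE 0.233, adjusted p = 0.000191).

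H2BC11 showed the highest log2 fold change of the members, 3.24 (limma, SE 0.429, adjusted p = 0.00195), from a TPM of 0.441 and 0.393 to 13.9 and 11.1. H2BC17 went from 0.487 and 0.668 to 6.62 and 7.73, with a log2 fold change of 2.37 (limma, adjusted p = 0.0047). Both started below a TPM of 1 and entered the test through the knockdown libraries. H2BC21, in the 1q21 cluster, went from 2.62 and 2.82 to 12.8 and 19.2, with a log2 fold change of 2.17 (limma, adjusted p = 0.00138).

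The calls of H2BC5 and H2BC18 were weak. H2BC5 had a TPM of 8.72 and 18.3 with shScr, against 40.2 and 40.8 with shUHRF1, with its control libraries far apart and a log2 fold change of 1.60 (limma, SE 0.427, adjusted p = 0.0428). H2BC18 went from 0.279 and 0.467 to 1.87 and 1.70, a log2 fold change of 1.02 just past the threshold (limma, SE 0.197, adjusted p = 0.011). When each UF1hypo library was left out in turn, each of these 2 genes was called in 1 of 4 fits. H2BC6 was the only tested member with both knockdown libraries below both controls, at a TPM of 0.226 and 0.576 against 1.102 and 0.780 in the controls (limma, log2 fold change −0.48, adjusted p = 0.356). Its mean coverage went the other way, from 0.688 in UF1hypo shScr to 1.16 in UF1hypo shUHRF1, so that its direction depends on the measure.

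Among the H3 genes H3C10 had a TPM of 2.09 and 2.65 in UF1hypo shScr, against 13.7 and 11.4 in UF1hypo shUHRF1, clearly separated, with a log2 fold change of 2.01 (limma, SE 0.243, adjusted p = 0.00127). H3C2 had 1.59 and 0.708 against 3.97 and 7.17, with a wider spread in both groups and a log2 fold change of 1.60 (limma, SE 0.297, adjusted p = 0.00943). It was not called without replicate 2 of UF1hypo shScr (3 of 4 such fits called it). For H3C1 the TPM was 1.57 and 2.90 with shScr, against 5.85 and 5.32 on knockdown, without overlap, but the change did not pass (limma, log2 fold change 1.06, adjusted p = 0.107).

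Among the H4 genes H4C8 had a TPM of 0.390 and 0.407 in UF1hypo shScr, against 2.80 and 4.89 in UF1hypo shUHRF1, with a log2 fold change of 1.76 (limma, SE 0.257, adjusted p = 0.00311). H4C5 went from 0.626 and 0.995 to 2.87 and 3.72, with a log2 fold change of 1.25 (limma, adjusted p = 0.0106), and was not called without replicate 1 of UF1hypo shScr. Both called H4 genes entered the test only through shUHRF1. H4C9, the most abundant H4 gene, had a TPM of 3.18 and 3.32 with shScr, against 6.10 and 24.1 with shUHRF1. Its knockdown libraries were both above the controls but far from each other, and the log2 fold change of 1.65 had an SE of 0.521 (limma, adjusted p = 0.0745), being called in 1 of 4 fits that left out a library.

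**Figure D3:**
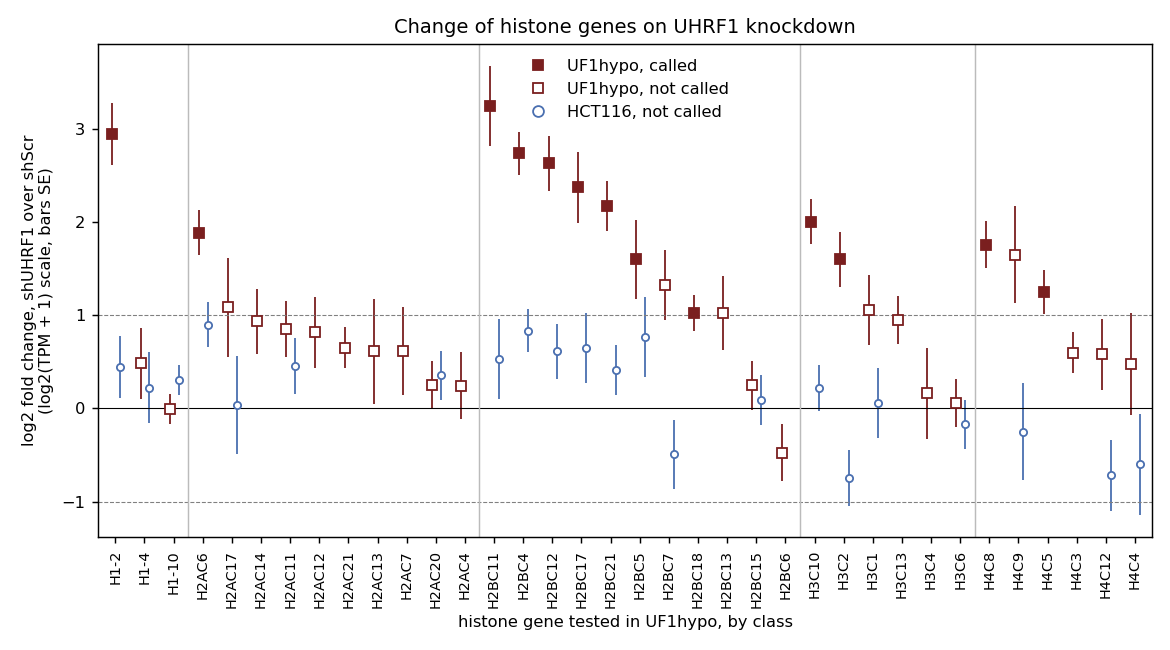
Plot of the log2 fold change on UHRF1 knockdown (shUHRF1 over shScr, log2(TPM + 1) scale, bars for 1 standard error from limma with 2 libraries per group) of 36 of the 37 histone genes tested in UF1hypo, by class, with HCT116 values as open circles where tested. The 13 filled squares lie above 1 and 7 of them are H2B genes, while no HCT116 value was called.

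Of the 37 tested members both knockdown libraries lay above both controls in 24, below in 1, and overlapped in 12, against 30.6% above and 18.3% below over all genes tested. Of the 13 genes that entered through shUHRF1 11 are among those above (all but H2AC4 and H4C4), so that these shares carry the same limit as the counts of calls.

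Summed over genes with a stem-loop, TPM was 122 and 150 in UF1hypo shScr, against 613 and 776 in UF1hypo shUHRF1, a ratio of group means of 5.12. By class the ratio was 8.24 for the 6 H1 genes with a stem-loop, 5.53 for H2B, 3.67 for H4, 3.15 for H3 and 3.01 for H2A. The H1 sum of 202 ± 106 (SD, n = 2) and the H4 sum of 28.6 ± 14.3 (SD, n = 2) in UF1hypo shUHRF1 had a wide spread, which lay in H1-2 and H4C9, both higher in replicate 2. H1-2 made up 97.1% of the summed mean TPM of these H1 genes. Without replicate 2 of UF1hypo shUHRF1 the log2 ratio went from 3.04 to 2.38 for H1 and from 1.88 to 1.24 for H4, while that of H2B went from 2.47 to 2.49, above H1.

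**Figure D4:**
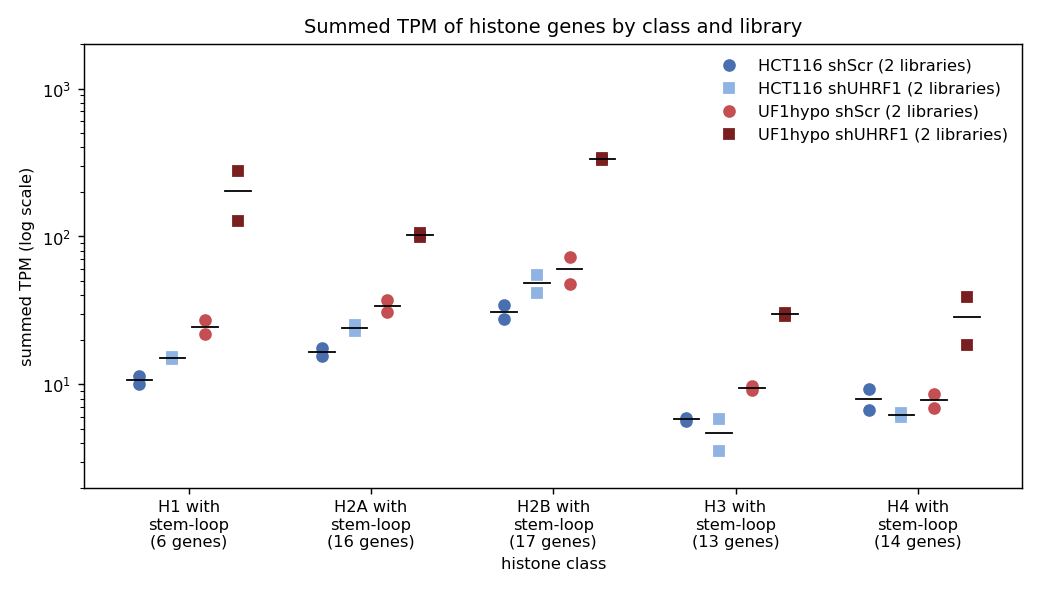
Plot of the summed TPM of histone genes with a stem-loop by class, on a log axis, with 1 point per library and black bars for the mean of 2 libraries. In each of the 5 classes both UF1hypo shUHRF1 libraries lie above the libraries of the other 3 groups.

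Of the 13 called genes 11 lie at 6p22, which holds 55 of the 70 members, and 2, H2BC21 and H2BC18, at 1q21, which holds 11. All 7 of the called H2B genes have a CCAAT box in their promoter, as has every H2B gene, and 6 have the octamer, all but H2BC5. The octamer stands in 14 of all 17 H2B promoters. None of these counts sets the called genes apart from the other members.

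In head-to-head pairs with both genes tested, both log2 fold changes were positive, but their sizes differed. Some of these genes entered the test only through shUHRF1, where a rise was needed. H2AC17 and H2BC17 gave 1.08 and 2.37, H2AC7 and H2BC7 0.61 and 1.32, and H2BC13 and H2AC13 1.02 and 0.61. H2BC4 and H2AC6, whose starts lie 219 bases apart, were both called, and H2BC4 had the higher log2 fold change (2.74 against 1.89). In the pair of H2BC12 and H2AC12, 251 bases apart, H2BC12 was called while H2AC12 went from a mean TPM of 0.459 to 1.81 without being called. H2BC21 rose whereas its partner H2AC20, 266 bases away, had a log2 fold change of 0.25. H2BC11 and H2AC11, 247 bases apart, gave 3.24 and 0.85, of which the first was called. Differences within a pair were not tested.

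Knockdown in parental HCT116 cells called 0 of 25 tested members by limma, and 3 had an unadjusted p below 0.05 (H2AC6, H2BC4 and H3C2). The background was 0.0787% called, or 10 of 12706 genes, so that few calls were made at all. No alternative fit called a member. H2AC6 had a TPM of 4.68 and 4.87 in HCT116 shScr, against 7.79 and 12.2 in HCT116 shUHRF1, with no overlap and a log2 fold change of 0.90 (limma, SE 0.239, adjusted p = 0.327). H2BC4 had 0.727 and 1.12 against 3.04 and 1.89, also without overlap (limma, log2 fold change 0.83, adjusted p = 0.363).

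H3C2 had both HCT116 shUHRF1 libraries below the controls, at 0.197 and 0.297 against 0.996 and 1.19 with shScr (limma, log2 fold change −0.75, adjusted p = 0.66), and H4C12, whose coding sequence equals that of H4C11, was at 0.605 and 1.61 against 2.11 and 2.65 (limma, log2 fold change −0.72, adjusted p = 0.858). Over the 25 tested members both knockdown libraries were above the controls in 10, below in 2 and overlapping in 13, against a background of 20.1% above and 29.3% below. Of these members 24 passed through the shScr libraries. The summed TPM of stem-loop genes was 73.8 and 70.3 with shScr, against 88.7 and 107 with shUHRF1, a ratio of 1.36, and by class it ran from 0.779 for H4 and 0.812 for H3 to 1.56 for H2B.

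The test of the difference between the 2 knockdown effects called 8 of 39 members, all with the more positive effect in UF1hypo, where the background was 5.09% in either direction and 4.53% in that direction. They were H2BC11, H1-2, H3C2, H2BC12, H2BC4, H4C8, H3C10 and H2BC21, and all 8 were also called in UF1hypo. H1-2 differed by 2.50 on the log2 scale (limma, SE 0.471, adjusted p = 0.0213) and H3C2 by 2.35 (limma, SE 0.42, adjusted p = 0.0177). H2AC6 differed by 0.99 (limma, SE 0.338, adjusted p = 0.156) and was not called. H4C1 had a TPM of 0.630 and 0.266 in HCT116 shScr and 0.653 and 1.43 on knockdown, was at 0.195 and 0.180 in UF1hypo shScr and listed at 0 on knockdown there, and gave the most negative difference of the members, −0.73 (limma, SE 0.343, adjusted p = 0.309). H4C9 had 1.90 with an SE of 0.737 (limma, adjusted p = 0.211). The number rested on the libraries: without any 1 of the 4 HCT116 libraries or the 2 UF1hypo shScr libraries 0 or 1 members were called, and without replicate 1 or 2 of UF1hypo shUHRF1 11 and 10. These counts also follow the spread shared over the groups, in which the UF1hypo shUHRF1 libraries differed most. With each library left out, the difference stayed between 1.93 and 3.06 for H1-2 and between 1.99 and 2.70 for H3C2. With the filter on control libraries 5 of 29 were called, against a background of 2.33%.

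Under the control hairpin, UF1hypo and HCT116 cells differed in 2 of 29 tested members, H2AC6 and H2BC4, where the background was 3.54% in either direction and 2.58% higher in UF1hypo shScr. Both were higher in UF1hypo shScr. H2AC6 had a TPM of 15.9 and 20.8 against 4.68 and 4.87 in HCT116 shScr, a log2 fold change of 1.74 (limma, SE 0.239, adjusted p = 0.00522). H2BC4 had 3.68 and 3.63 against 0.727 and 1.12, a log2 fold change of 1.28 (limma, SE 0.233, adjusted p = 0.0185). Without any 1 of the 4 libraries at most 1 of these calls remained. This comparison shares its UF1hypo shScr libraries with the knockdown in UF1hypo and its HCT116 shScr libraries with that in HCT116.

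H1-2 was at 26.6 and 20.2 in UF1hypo shScr and at 9.91 and 8.64 in HCT116 shScr, without overlap, but did not pass (limma, log2 fold change 1.24, adjusted p = 0.0791). H1-10 lay lower in UF1hypo shScr, at 267 and 232 against 374 and 414, and did not pass either (limma, log2 fold change −0.66, adjusted p = 0.0543). Over the 29 tested members UF1hypo shScr was above HCT116 shScr in 12, below in 4 and overlapping in 13, against a background of 29.1% above and 37.2% below. The summed TPM of stem-loop genes was 1.89 times as high in UF1hypo shScr as in HCT116 shScr.

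Histone genes outside the naming rule gave a point of reference. Of 14 such genes, mostly replication-independent variants, 13 were tested in UF1hypo. Of these 3 were called higher, H2AW, H2BU1 and H4-16, and 0 lower. The newer annotation renames the 3 called genes H2AC25, H2BC26 and H4C16, names that the rule would have taken. H2AW had a TPM of 29.6 and 32.5 in UF1hypo shScr, against 113 and 102 in UF1hypo shUHRF1, with no overlap and a log2 fold change of 1.76 (limma, SE 0.162, adjusted p = 0.00031). H2BU1 went from 0.344 and 0.284 to 2.45 and 2.38 (limma, log2 fold change 1.38, adjusted p = 0.00297), and H4-16 from 0 and 0.193 to 1.96 and 2.69 (limma, log2 fold change 1.60, adjusted p = 0.00317). The share called higher over all genes was 7.39%, and H2BU1 and H4-16, below a TPM of 1 in both controls, entered the test only through shUHRF1. All 3 were called for the difference in effect between the lines as well.

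The abundant replication-independent variants were not called. H3-3B, which encodes H3.3, had a TPM of 1207 and 1200 in UF1hypo shScr, against 1206 and 1457 in UF1hypo shUHRF1, which overlapped. H2AZ1, which encodes H2A.Z, was at 1052 and 1039 against 740.1 and 806.4 (limma, log2 fold change −0.44, adjusted p = 0.0468), under the fold-change threshold. CENPA, the centromeric H3, was at 42.8 and 42.2 against 24.9 and 32.9 (limma, log2 fold change −0.55, adjusted p = 0.0708).

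Of 27 genes for histone gene transcription and mRNA 3′ end processing, 0 were called higher and 1 lower in UF1hypo, with a median log2 fold change of −0.15 against 0.04 over all genes tested, and 0 were called in HCT116. The called gene was ERI1, the exonuclease that trims the histone mRNA stem-loop end, with a TPM of 42.4 and 39.9 in UF1hypo shScr, against 12.3 and 21.8 in UF1hypo shUHRF1 (limma, log2 fold change −1.27, adjusted p = 0.012). In HCT116 it was at 45.5 and 54.9 with shScr, against 60.6 and 58.3 with shUHRF1, and the lines differed by this test (limma, −1.52 on the log2 scale, adjusted p = 0.046). SLBP, the stem-loop binding protein, was at 155 and 141 in UF1hypo shScr, against 88.1 and 166 in UF1hypo shUHRF1, which overlapped (limma, log2 fold change −0.29, adjusted p = 0.512). NPAT, the coactivator of clustered histone genes, was at 8.59 and 7.57 against 4.75 and 10.7 (limma, log2 fold change −0.14, adjusted p = 0.817).

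No gene of 21 S phase and proliferation genes or of 19 histone chaperones was called by limma in either knockdown, in their difference or between the control groups. In UF1hypo 3 of the 21 and 4 of the 19 had an unadjusted p below 0.05, and the median log2 fold changes were −0.20 and −0.15. For UF1hypo shScr against HCT116 shScr the medians were −0.31 and −0.26, and 5 and 1 genes had an unadjusted p below 0.05. PCNA, the sliding clamp of replication, had a TPM of 417 and 385 in UF1hypo shScr, against 287 and 379 in UF1hypo shUHRF1. Both knockdown libraries lay below the controls, though 379 was close to 385. Over all genes tested 18.3% lay below and 30.6% above. RRM1, TYMS, MCM6, CCNA2 and CCNB1 of the same list also lay below both controls. RRM1, for example, was at 98.2 and 89.2 with shScr, against 44.2 and 71.9 with shUHRF1. MCM5 and CCNE1 lay above both controls, and the other genes of the list overlapped. MCM5 was at 151 and 180 with shScr, against 283 and 186 with shUHRF1, and CCNE1 at 47.0 and 42.8 against 50.1 and 53.7.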

How the data were processed

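RNA-seq gene tables of 8 polyA libraries in 4 groups were used. The authors used Fastp for trimming, HISAT2 2.0.4 for alignment to GRCh38 and StringTie 2.1.4 for gene levels, the versions being those of the submitters' processing notes. As deposited by the authors, coverage signal is the mean read depth per base, FPKM values are normalized for length and aligned bases, and TPM values are scaled to 1000000 per library. The annotation release is not given in the sources used here. Multi-mapped reads among near-identical histone genes can be split, and poly(A) selection is not made for mRNA that ends in a stem-loop, so that levels are not total histone mRNA.

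The 60649 identifiers were matched to GENCODE version 44 (60507 found, 19968 protein-coding, 2 members by symbol alone), and records of an identifier were summed. Protein-coding genes with TPM over 1 in a library of the contrast were tested on log2(TPM + 1) with limma 3.58.1 (R 4.3.3), 1 fit with a variance trend over all groups and 4 residual degrees of freedom. Calls needed an adjusted p under 0.05 and an absolute log2 fold change over 1. The fit was also run on simulated data with independent noise. These had no GC content shift between replicates, so that they give no check of such a shift. Aligned bases (5.42 to 7.83 gigabases) were recovered from coverage over FPKM. For 1 gene, 2 libraries against 2 cannot give an exact permutation p below 0.33. DESeq2, which the authors used, needs counts and was not run.

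Named genes are UHRF1, members called in any comparison, H1 genes above a TPM of 1, the 3 most abundant members of each core class, the 2 largest and 2 smallest changes per comparison, called genes of the other lists (5 at most per list and comparison), SLBP and NPAT. The values of 1 member are not reported here, though it is in the counts of members. Other genes were named after their values were seen. Members and lists were chosen with earlier results of these data known. Alternatives were a pseudocount of 0.1, other filters and annotations, the libraries of a contrast alone, FPKM, median-ratio and quantile scaling, no variance trend, library weights, a GC content and length correction in 10 bins, the replicate number as a block, the largest record, and each library left out. Other steps used Python 3.11.15, pandas 2.3.3 and matplotlib 3.10.9.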

Additional observations from a re-analysis of the deposited data

Results flagged for a closer look

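By the limma test of the difference, 8 histone genes responded to UHRF1 knockdown differently in the 2 lines, each with the more positive effect in UF1hypo. The difference of log2 fold changes was 2.71 for H2BC11, 2.50 for H1-2, 2.35 for H3C2, 2.02 for H2BC12, 1.90 for H2BC4, 1.85 for H4C8, 1.79 for H3C10 and 1.76 for H2BC21. H4C8 had a TPM below 1 in every library but those of UF1hypo shUHRF1. Groups of 2 libraries are too small for the test of single libraries that stand apart.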

How the results depend on the processing

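Under the alternatives the 13 members called in UF1hypo became 7 with library weights and 7 with the filter on control libraries. They became 9 with the libraries of the contrast alone, 10 with a pseudocount of 0.1, 10 with quantile normalization and 11 with FPKM. Without the TPM filter 12 were called, and 12 with the GC content correction, with or without the block. The 8 called for the difference became 3 with a pseudocount of 0.1, 5 without the TPM filter, 5 with all annotated genes, 4 with quantile normalization, 2 with library weights and 5 with the control filter. They became 7 with median-ratio scaling and 10 with the block and the GC content correction together. The 2 between control groups became 1 with FPKM, and 3 with the libraries of the contrast alone or with library weights. For all genes, below, smaller shifts are not listed. Leaving out each library gave 10 to 16 members in UF1hypo, 0 to 11 for the difference, 0 to 1 between control groups and 0 in HCT116. Libraries of the same replicate number did not deviate together (correlations of −0.40 to 0.05). The −0.40 was between UF1hypo shScr and UF1hypo shUHRF1, and was −0.155 after the GC content and length correction. Whether libraries were paired under other numbers is not known. With the replicate block 13, 6, 2 and 0 members were called in UF1hypo, for the difference, between control groups and in HCT116. In the 4 UF1hypo libraries alone, added after seeing the data, the block called 14 members and 826 genes, and the crossed block 18 and 1313.

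All genes called in HCT116 (10) became 28 with a pseudocount of 0.1, 0 without the TPM filter, 19 with a mean filter, 3 with all annotated genes, 89 with its libraries alone, 2 with median-ratio scaling, 5 without a variance trend, 96 with library weights, 76 with the GC content correction, 1 with the replicate block, 66 with both, and 0 with any library left out. In UF1hypo 1162 became 563 with its libraries alone, 748 with FPKM, 532 with weights, 677 with the control filter, and 650 to 2252 with a library left out. For the difference 702 became 448 with a pseudocount of 0.1, 420 with weights, 299 with the control filter and 171 to 2142 with a library left out, and between control groups 455 became 137 to 167.

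No called change reversed under any alternative. Among uncalled changes, leaving out a library gave ranges that cross 0 in HCT116 for H1-4 (−0.27 to 0.71), H2AC17 (−0.75 to 0.83), H2BC11 (−0.10 to 1.16), H3C1 (−0.51 to 0.63) and H4C9 (−0.63 to 0.13), in UF1hypo for H1-10 (−0.13 to 0.12) and H2AC20 (−0.094 to 0.59), for the difference in H1-4 (−0.23 to 0.75), H2AC20 (−0.45 to 0.24) and H2BC6 (−0.72 to 0.13), and between control groups in H1-4 (−0.49 to 0.037), H2AC17 (−0.074 to 0.92), H2BC17 (−0.43 to 0.20), H3C2 (−0.29 to 0.31) and H4C9 (−0.18 to 0.11). The GC content correction, with and without the block, reversed H2AC17 in HCT116 (−0.0126) and H2BC17 (−0.071) and H3C2 (−0.11) between control groups. A pseudocount of 0.1 reversed H2AC17 in HCT116 (−0.042) and H3C2 between control groups (−0.026), quantile normalization H1-4 for the difference (−0.12) and H3C2 between control groups (−0.11), and median-ratio scaling H4C9 between control groups (0.0054). Of summed TPM, as log2 ratios, the H3 sum in HCT116 (−0.30) spanned −0.71 to 0.015 with a library left out, and that in UF1hypo moved from 1.66 to 1.59 with FPKM. Other causes were not tested. Genes below a TPM of 1 rest on few reads, whose number is unknown.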
